A study of Triticum aestivum with 12 samples.

Results

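The core histone genes H2A-2, H2A-3, H2A-9 and H2B-6 were followed in wheat roots under split and uniform potassium (K) supply. They were taken as the probe sets that the platform annotation assigned to the gene records LOC732712 (H2A-2), LOC732713 (H2A-3), LOC732714 (H2A-9) and LOC543183 (H2B-6). This gave 11 probe sets of 4 genes, among 1273 probe sets of 771 genes with a symbol and 61179 probe sets tested in all. H2A-2 had 1 probe set, H2A-3 had 2, H2A-9 had 6 and H2B-6 had 2.

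Roots of the cultivar Tongzhou916 were hybridized to the Affymetrix Wheat Genome Array, 1 sample per array. Seedlings 3 weeks old had been given K for 5 days in vessels with separate compartments, with potassium sulfate at 0.005 mmol/L as low K and at 1.0 mmol/L as normal K. The groups were the low-K side of split roots (Sp. LK), whose other side had normal K, roots with low K on both sides (C. LK), the normal-K side of split roots (Sp. NK), whose other side had low K, and roots with normal K on both sides (C. NK). The 3 arrays of a group came from separate pools of plants per the methods. The sources used here do not say whether both sides of the same split plants were hybridized.

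Histones H2A and H2B form dimers, and these join histones H3 and H4 in the nucleosome, the protein core around which DNA is wound. Most core histone transcripts accumulate while a cell copies its DNA, so in roots they are high in the dividing cells of the tips and of young lateral roots. In whole roots, fewer dividing cells and less histone RNA per cell cannot be told apart.

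In the RefSeq genes of the Chinese Spring assembly (IWGSC CS RefSeq v2.1), H2A-2 and H2A-3 lay on the same chromosome with 7 annotated genes between them, of which 3 were protein-coding. H2A-2 was measured by 1 probe set whose name ends in x_at, a suffix for probes that also match other transcripts. The same suffix marked 3 of the H2A-9 probe sets and 1 of H2B-6, and s_at, for probes common to several related transcripts, marked 1 probe set each of H2A-3 and H2A-9. Hexaploid wheat carries many near-identical histone copies, so these signals may sum over several of them.

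Values are MAS5 signals in arbitrary units, and every array had a mean signal of about 500 without the outer 2% of values, so that levels are relative to this common scale. Signals below 32, close to background, made up 30.5% to 33.9% of each array. A probe set's signal also depends on its probes, so levels were compared between groups and never between probe sets. Of the probe sets of genes known from leaf or shoot tissue, 6 of 34 exceeded 32 on every array. Of those of root-expressed genes 3 of 4 did, all 3 of DMAS1, a synthase of the iron-binding deoxymugineic acid. The probe set of ALMT1, an aluminium-activated malate transporter, ranged from 28.8 to 88.7 and did not. Among probe sets of grain genes, 6 of 25 exceeded 32 on every array.

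H2A-9, an H2A gene, was the one with the most probe sets, and all of them exceeded a signal of 32 on every array. Probe set Ta.27657.7.S1_x_at of H2A-9 read 18279, 13522 and 21020.5 in Sp. LK, 22318, 23739 and 20001 in C. LK, 18891, 17039.7 and 20291 in Sp. NK, and 19395, 17885 and 24585 in C. NK. The lowest signal was on the second array of Sp. LK and the highest on the third of C. NK, and the ranges of all groups overlapped. Its means were 17607 ± 3794 in Sp. LK, 22019 ± 1887 in C. LK, 18741 ± 1631 in Sp. NK and 20622 ± 3514 in C. NK (SD, n = 3 each).

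Probe set Ta.27657.12.S1_at of H2A-9 read 2635, 1826 and 3078 in Sp. LK, 3558, 4205 and 2970.0 in C. LK, 2397, 2357 and 3084 in Sp. NK, and 2429, 2838 and 4136 in C. NK. The second Sp. LK array was again lowest, while the second C. LK array was highest and the third C. NK array came next. The means were 2513 ± 635 in Sp. LK, 3578 ± 618 in C. LK, 2613 ± 409 in Sp. NK and 3134 ± 891 in C. NK (SD, n = 3 each), and the highest Sp. LK array lay above the lowest C. LK array.

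Probe set Ta.27657.1.S1_at, also of H2A-9, read 3466, 2404 and 4172 in Sp. LK, 3511, 3838 and 4217 in C. LK, 3448, 3039.7 and 3431 in Sp. NK, and 3457, 3598 and 4777 in C. NK. Its 3 Sp. NK arrays all lay below its 3 C. NK arrays and its 3 C. LK arrays, whereas its Sp. LK arrays spread over the whole range. The other H2A-9 probe sets, Ta.27657.14.S1_s_at, Ta.27657.14.S1_x_at and Ta.27657.6.S1_x_at, had the same extreme arrays as Ta.27657.7.S1_x_at, with the highest signal over the lowest at 2.32, 2.05 and 1.60-fold.

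H2A-3 was measured by a pair of probe sets that ran against each other. Ta.27192.1.S1_at read 5947, 4056 and 6322 in Sp. LK, 6771, 8559 and 6316 in C. LK, 5159.7, 5704 and 7295 in Sp. NK, and 5645, 5711 and 8594 in C. NK. The second Sp. LK array was lowest and the third C. NK array highest, a 2.12-fold range, and the means were 5442 ± 1214 in Sp. LK, 7215 ± 1186 in C. LK, 6053 ± 1109.6 in Sp. NK and 6649.9 ± 1684 in C. NK (SD, n = 3 each). Ta.27192.1.S1_s_at read 499, 644 and 514 in Sp. LK, 447, 472 and 469.9 in C. LK, 529.6, 541 and 465 in Sp. NK, and 513, 518 and 373 in C. NK. Here the second Sp. LK array was highest and the third C. NK array lowest, and all Sp. LK arrays lay above all C. LK arrays.

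H2A-2, also an H2A gene, had the widest spread within groups of the 11 probe sets. Ta.29542.1.S1_x_at read 961, 718 and 1522 in Sp. LK, 1048, 1329.5 and 949 in C. LK, 831, 1121 and 1299.9 in Sp. NK, and 872, 705 and 1135 in C. NK. The highest signal was on the third Sp. LK array and the second of that group was near the bottom, so Sp. LK alone spanned almost the full range. The means were 1067 ± 413 in Sp. LK, 1109 ± 197 in C. LK, 1084 ± 236 in Sp. NK and 904 ± 217 in C. NK (SD, n = 3 each), and all groups overlapped.

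H2B-6, the H2B gene of the set, also had a pair of probe sets. Ta.27708.1.S1_x_at read 10097, 7446 and 10900.2 in Sp. LK, 11069, 12055 and 11643 in C. LK, 9238, 9154 and 9762 in Sp. NK, and 9786, 10999 and 12675 in C. NK. All 3 arrays of C. LK lay above all 3 of Sp. LK and above all 3 of Sp. NK, and the Sp. NK arrays lay below the C. NK arrays, the highest of them by a small margin. The means were 9481 ± 1807 in Sp. LK, 11589 ± 495 in C. LK, 9385 ± 329.6 in Sp. NK and 11153 ± 1450.3 in C. NK (SD, n = 3 each).

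Ta.27708.1.S1_at of H2B-6 read 9849, 8001 and 9177 in Sp. LK, 8546, 9904 and 11975 in C. LK, 9889.8, 7937 and 8318 in Sp. NK, and 9624, 10670.2 and 10217 in C. NK. Its highest array was the third of C. LK and its lowest the second of Sp. NK, which is not the order of the other H2B-6 probe set. The means were 9009 ± 935 in Sp. LK, 10142 ± 1727 in C. LK, 8715 ± 1035 in Sp. NK and 10170.3 ± 525 in C. NK (SD, n = 3 each).

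**Figure D1:**
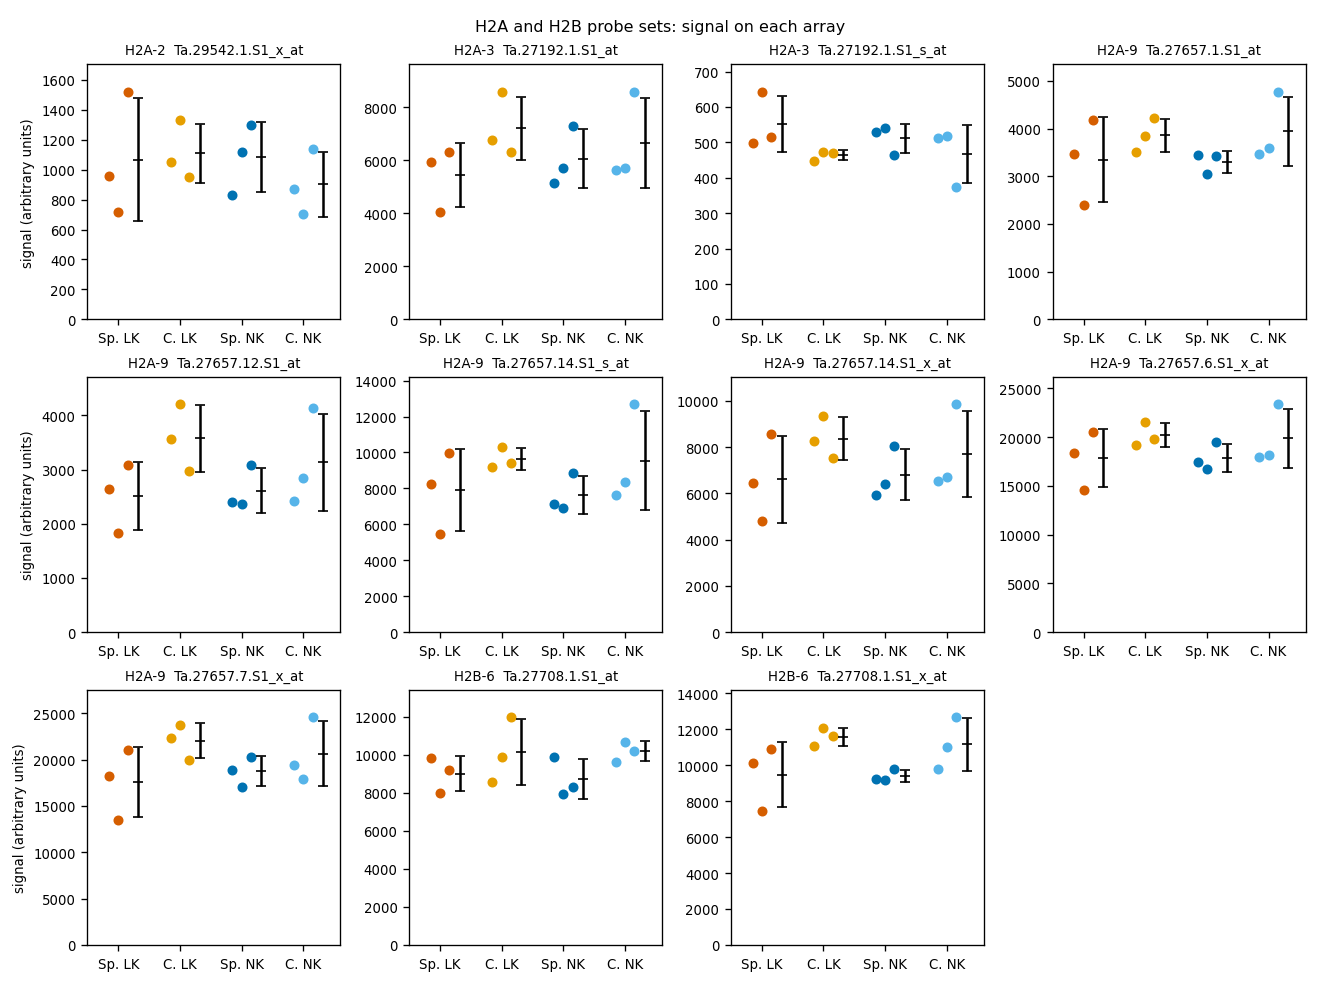
Signal of each of the 11 H2A and H2B probe sets (vertical axis, arbitrary units, from 0) on the 12 arrays, with 1 point per array and the group mean with SD as a black bar beside the points. In 8 of the 11 panels the lowest point is the second Sp. LK array, and in 7 the highest is the third C. NK array.

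By group mean of the log2 signal, C. LK was the highest group for 8 of the 11 probe sets, and C. NK for 2 and Sp. LK for 1. Sp. LK was the lowest group for 7, Sp. NK for 2, and C. LK and C. NK for 1 each. The order C. LK, C. NK, Sp. NK, Sp. LK from high to low was shared by H2A-3 Ta.27192.1.S1_at, H2B-6 Ta.27708.1.S1_x_at and 4 of the 6 H2A-9 probe sets. No neighbouring pair of groups in this order differed past the thresholds below for any probe set.

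The effect of normal K on the other side of the root was given by Sp. LK against C. LK. All H2A and H2B probe sets but H2A-3 Ta.27192.1.S1_s_at had a lower mean in Sp. LK, 10 of 11, with a median log2 fold change of -0.31, beside 0.04 over all probe sets. The 6 probe sets of H2A-9 correlated with each other at an r of 0.80 to 0.99 over all arrays. Counts out of 11, here and in the comparisons below, are therefore not counts of independent members. At the study's thresholds, where a call needs a fold change above 1.5 and p below 0.05 without adjustment, 0 of 11 were called, beside 4.78% of all probe sets. At an adjusted p under 0.05 (limma, Benjamini-Hochberg) 0 of 11 were called, beside 0% of all. An unadjusted p under 0.05 alone was reached by 2 of 11, beside 7.49% of all. This count changed with single arrays, being 7 without the third Sp. LK array (7.61% of all) and 4 without the third C. NK array (8.11%). It was 0 without the second Sp. LK, the first C. LK or the second C. LK array (4.73%, 6.55% and 5.39% of all). Without any one Sp. NK array or the second C. NK array it was 1 (7.15% to 7.58%). It also changed with the processing, to 4 under quantile normalization (7.58% of all) and to 3 in a fit blocked on replicate (7.7%). With arrays centred on the brighter probe sets (7.5%) or only the 6 arrays of the pair fitted (7.34%) it was 1. Under the methods' t-test (6.1%) and without the variance trend of limma (6.29%) it was 0. Groups did not overlap for 2 of 11, beside 12.7% of all.

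The largest difference was that of H2A-9 Ta.27657.12.S1_at, with a log2 fold change of -0.53 (SE 0.22, adjusted p = 0.626) and a 95% confidence interval of -0.998 to -0.06. Its unadjusted p in the limma fit was 0.0303, and an exact two-sided permutation test over the 6 arrays gave p = 0.2, where 0.1 is the smallest that 3 against 3 arrays allow. Without the third C. LK array its log2 fold change was -0.66 (adjusted p = 0.433, limma) and without the third Sp. LK array -0.69 (adjusted p = 0.562, limma), and in both cases 1 of 11 then passed the study's thresholds. An unadjusted p under 0.05 alone was then reached by 9.55% and 7.61% of all probe sets. The share of all probe sets past the study's thresholds was not computed for these fits.

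H2B-6 Ta.27708.1.S1_x_at had a log2 fold change of -0.31 (SE 0.14, adjusted p = 0.663) in limma, with an unadjusted p of 0.0482 and an interval of -0.61 to -0.0028. The exact two-sided permutation test gave p = 0.1, the smallest possible, which groups without overlap always give. For this probe set it therefore only restates that the Sp. LK and C. LK arrays did not overlap. H2A-3 differed by -0.42 (SE 0.21, adjusted p = 0.679) at Ta.27192.1.S1_at and by 0.25 (SE 0.16, adjusted p = 0.75) at Ta.27192.1.S1_s_at, in opposite directions.

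H2A-9 Ta.27657.7.S1_x_at differed by -0.34 (SE 0.17, adjusted p = 0.679) and H2A-2 by -0.11 (SE 0.26, adjusted p = 0.948) in limma. The intervals were -0.70 to 0.02 and -0.67 to 0.44, so that for both a change of 1.5-fold in the downward direction was within reach of the error. This held for every probe set but H2A-3 Ta.27192.1.S1_s_at, H2A-9 Ta.27657.6.S1_x_at and H2B-6 Ta.27708.1.S1_at. Leaving out the second Sp. LK array, the lowest of that group, brought the median over the 11 probe sets to -0.08. H2A-2 was then 0.14 higher in Sp. LK on the log2 scale.

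In the same comparison, the summed signal of the leaf and shoot list was 6862 to 7733 on the Sp. LK arrays and 7873 to 8453 on the C. LK arrays, and that of the grain list was 7547 to 9080.1 in Sp. LK and 6498 to 7262 in C. LK. Both differed without overlap between the groups, and their part in the histone values was not tested. Single bright probe sets made up much of these sums. In the grain list, Ta.27777.1.S1_at of the gene avnlb read 4976 to 6620 over all arrays. In the leaf and shoot list, Ta.24976.1.S1_x_at and TaAffx.128414.1.A1_x_at of rbcl read 3285 to 5491 and 2167 to 4302. The leaf and shoot sum was 8585 to 11177 in C. NK, above every Sp. LK and every C. LK array, and its part in the comparisons of these groups was not tested either. In Sp. NK it was 7302 to 9989, overlapping C. NK. The root-expressed list overlapped, at 28850.3 to 53561 in Sp. LK and 33201 to 50396 in C. LK.

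The effect of low K on the other side was given by Sp. NK vs. C. NK. Of the 11 probe sets, 9 had a lower mean in Sp. NK, with a median log2 fold change of -0.17, beside -0.000744 over all probe sets. At the study's thresholds 0 of 11 were called, beside 3.38% of all, and after adjustment 0 of 11, beside 0% of all. No histone probe set had an unadjusted p under 0.05 in limma, 0 of 11, beside 4.25% of all. In this comparison the deviations of same-numbered arrays from their group means correlated at an r of 0.27, 0.16 and 0.28. No source says that these arrays share plants or a batch. A paired limma fit of these 6 arrays, blocked on replicate and chosen after seeing the data, gave 2 of 11 under 0.05, beside 5.68% of all. These were H2A-9 Ta.27657.14.S1_s_at, at -0.30 (unadjusted p = 0.0213, adjusted p = 0.851), and H2B-6 Ta.27708.1.S1_x_at, at -0.24 (unadjusted p = 0.0363, adjusted p = 0.864). Sp. NK lay below C. NK in all 3 pairs for 8 of 11, beside 13.4% of all probe sets, and for Ta.27657.14.S1_s_at the differences were -0.10, -0.28 and -0.52 on the log2 scale. The exceptions were H2A-2, H2A-3 Ta.27192.1.S1_s_at and H2B-6 Ta.27708.1.S1_at. The other 8 correlated with each other over all arrays at an r of 0.77 to 0.99, so they are not independent members. Some of their differences were close to no change, such as -0.0017 for H2A-3 Ta.27192.1.S1_at in the second pair. For H2A-9 Ta.27657.1.S1_at the first pair differed by -0.0041. Groups did not overlap for H2A-9 Ta.27657.1.S1_at and H2B-6 Ta.27708.1.S1_x_at, 2 of 11, beside 9.03% of all.

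H2B-6 Ta.27708.1.S1_x_at was lower in Sp. NK by a log2 fold change of -0.24 (SE 0.14, adjusted p = 0.999) in limma, and H2A-9 Ta.27657.1.S1_at by -0.24 (SE 0.18, adjusted p = 0.999). The exact two-sided permutation p was 0.1 for each, the smallest possible, which groups without overlap always give. It therefore adds nothing to the lack of overlap for which these probe sets were named. H2A-2 and H2A-3 Ta.27192.1.S1_s_at had higher means in Sp. NK, at 0.27 and 0.14 on the log2 scale. Without the third C. NK array, the brightest for 7 of the 11 probe sets, the median was -0.02.

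Uniform low K was set against uniform normal K in C. LK vs. C. NK. Of the 11 probe sets 8 had a higher mean in C. LK, with a median log2 fold change of 0.06, beside -0.01 over all. At the study's thresholds 0 of 11 were called, beside 3.65% of all, and 0 of 11 after adjustment, beside 0%, while 0 of 11 had an unadjusted p under 0.05 in limma, beside 5.13%. The values lay between -0.02 for H2A-9 Ta.27657.1.S1_at and 0.31 for H2A-2, whose interval was -0.25 to 0.86. Without the third C. NK array the median was 0.24.

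The 3′ minus 5′ log2 signal of the sucrose synthase control, which rises as RNA degrades, was 3.86 to 4.06 on the C. LK arrays, 3.71 to 4.2 on the Sp. NK arrays and 4.29 to 4.51 on the C. NK arrays. It was thus higher on every C. NK array than on those of C. LK and Sp. NK, and its part in these 2 comparisons was not tested. In Sp. LK it was 3.81 to 4.30, overlapping C. LK. That of actin was -1.51 to -0.99 in C. LK, above the -3.87 to -2.16 of C. NK, and so moved the other way.

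The sides of the split roots were set against each other in Sp. LK vs. Sp. NK. Here 8 of 11 means were lower in Sp. LK, the median log2 fold change was -0.02, beside 0.02 over all, and the values lay between -0.16 and 0.10. At the study's thresholds 0 of 11 were called, beside 2.75% of all, and 0 of 11 after adjustment, beside 0%, and 0 of 11 had an unadjusted p under 0.05 in limma, beside 3.13%. Without the second Sp. LK array the median was 0.14.

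Across the treatments, C. LK vs. Sp. NK gave higher means in C. LK for 10 of 11 probe sets, with a median of 0.23, and Sp. LK vs. C. NK gave lower means in Sp. LK for 9 of 11, with a median of -0.24, both on the log2 scale. The called members were 0 of 11 at the study's thresholds in C. LK vs. Sp. NK, beside 4.33% of all, and 0 of 11 after adjustment, beside 0.00163%. In Sp. LK vs. C. NK they were 0 of 11, beside 3.51%, and 0 of 11 after adjustment, beside 0%. An unadjusted p under 0.05 in limma was found for 0 of 11 in each, beside 6.1% of all in C. LK vs. Sp. NK and 4.8% in Sp. LK vs. C. NK. In C. LK vs. Sp. NK the lowest of these p-values was 0.0504 in limma, for H2B-6 Ta.27708.1.S1_x_at, and under the methods' t-test 2 of 11 were under 0.05, beside 5.37% of all. In C. LK vs. Sp. NK the groups of 3 of 11 did not overlap, beside 11% of all. These were H2A-9 Ta.27657.1.S1_at and Ta.27657.14.S1_s_at and H2B-6 Ta.27708.1.S1_x_at. The 6 comparisons share arrays, so they are not independent of each other.

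**Figure D2:**
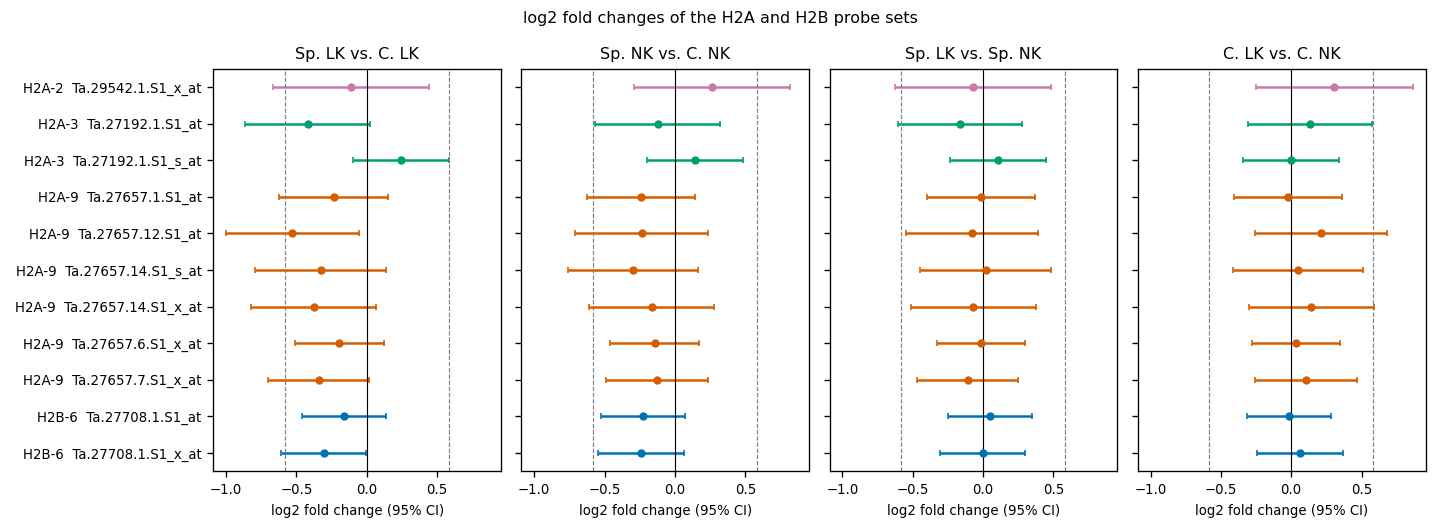
log2 fold change of each H2A and H2B probe set with its 95% confidence interval (limma, 3 arrays per group) in 4 comparisons, the first-named group over the second. Dashed lines mark a fold change of 1.5 in either direction. In the panel of Sp. LK against C. LK, 10 of 11 points lie left of 0 and the intervals of 2 exclude it.

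Averaged over both sides, split minus uniform supply gave lower means under split supply for 9 of 11 probe sets, with a median of -0.24 on the log2 scale, beside 0.02 over all. At the study's thresholds 0 of 11 were called, beside 3.63% of all, and 0 of 11 after adjustment, beside 0%. An unadjusted p under 0.05 was reached by 2 of 11, beside 7.34% of all. Without the third Sp. LK array it was reached by 7 (7.31% of all) and without the third Sp. NK array by 5 (8.02%). It was reached by 1 without the second array of Sp. LK, C. LK or Sp. NK or the third of C. NK (5.5% to 6.29% of all). With all arrays, the 2 were H2B-6 Ta.27708.1.S1_x_at, at -0.27 (SE 0.10, adjusted p = 0.603) with an unadjusted p of 0.0163 in limma, and H2A-9 Ta.27657.12.S1_at, at -0.38 (SE 0.15, adjusted p = 0.643) with an unadjusted p of 0.0271. The median was -0.15 without the second Sp. LK array and -0.17 without the third C. NK array.

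Whether the low-K difference itself depended on the supply was tested as (Sp. LK - Sp. NK) - (C. LK - C. NK). At the study's thresholds 0 of 11 were called, beside 3.55% of all, and 0 of 11 after adjustment, beside 0%, and 0 of 11 had an unadjusted p under 0.05 in limma, beside 3.92%. The largest value was that of H2A-2, -0.38 (SE 0.36, adjusted p = 0.981) with an interval of -1.16 to 0.41. For H2B-6 Ta.27708.1.S1_x_at it was -0.07 (SE 0.20, adjusted p = 0.992) in limma, with an interval of -0.50 to 0.37. Over all 4 groups, the limma F test called 0 of 11 after adjustment, beside 0% of all, and 0 of 11 had an unadjusted p under 0.05, beside 5.14% of all.

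Most of the variation lay between arrays of the same group. Of a probe set's sum of squares, the groups held 12.4% to 48.0% over the 11 probe sets, with a median of 28.7%, lowest for H2A-2 and highest for H2B-6 Ta.27708.1.S1_x_at. The median over the brighter 30590 probe sets was 25.2%. The SD within groups was 0.17 to 0.38 on the log2 scale, with a median of 0.25, beside 0.25 for the brighter probe sets. Among the 3684 probe sets as bright as the 9 brightest H2A and H2B probe sets, the median was 0.16.

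This spread was shared by the probe sets. On the second Sp. LK array 10 of 11 lay below their own mean over 12 arrays, by 0.44 on average on the log2 scale counting H2A-3 Ta.27192.1.S1_s_at, which lay 0.38 above its mean. On the third C. NK array 10 of 11 lay above their mean, and the mean deviation was 0.30, and on the second C. LK array 10 of 11 lay above, with a mean deviation of 0.26. The other arrays of these groups had mean deviations of -0.05 and 0.16 in Sp. LK, 0.07 and 0.09 in C. LK, and -0.09 and -0.06 in C. NK. The Sp. NK arrays were at -0.14, -0.15 and 0.05.

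**Figure D3:**
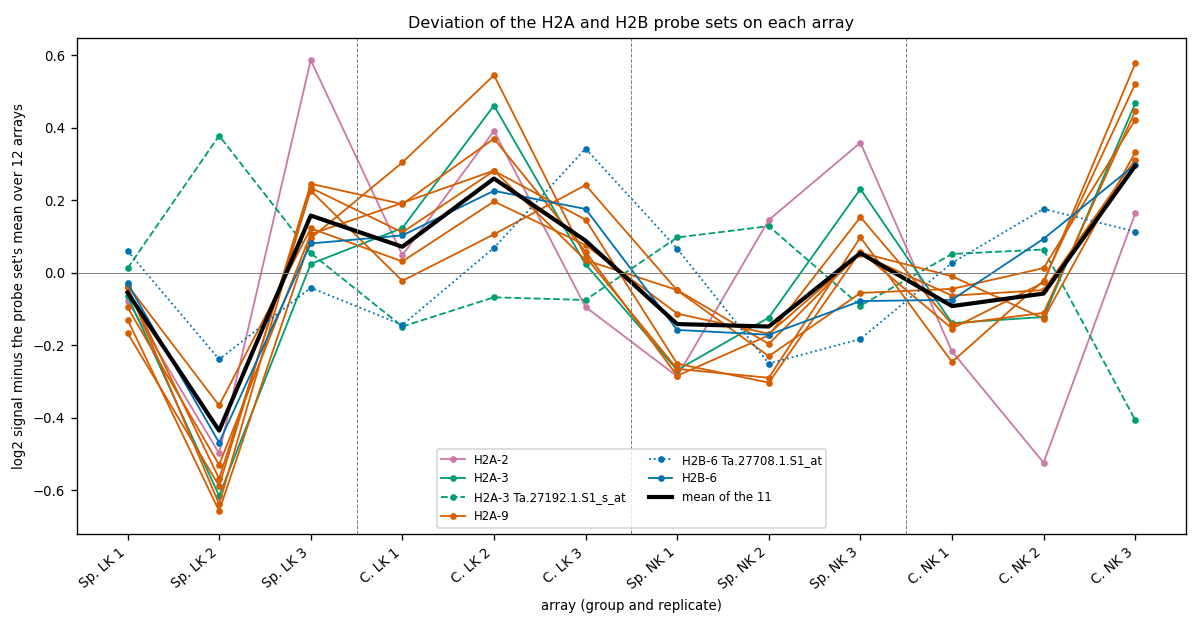
Deviation of each H2A and H2B probe set from its mean over 12 arrays (vertical axis, log2 signal) by array, coloured by gene, with the mean of the 11 in black. Of the 11 lines, 10 lie below 0 on the second Sp. LK array and 10 above 0 on the third of C. NK, the exception in both being H2A-3 Ta.27192.1.S1_s_at (dashed). H2A-2 peaks on the third Sp. LK array and H2B-6 Ta.27708.1.S1_at (dotted) on the third of C. LK.

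Of the 55 pairs of probe sets, 26 correlated over the 12 arrays at a Pearson r above 0.8 and 11 below 0. The 12 points of a pair share arrays and scaling, and x_at and s_at probe sets may share target transcripts. Within H2A-9, r ranged between 0.80 and 0.99 and Spearman's rho between 0.70 and 0.99 over 15 pairs. Between H2A-3 Ta.27192.1.S1_at, the H2A-9 probe sets and H2B-6 Ta.27708.1.S1_x_at, 13 pairs of different genes gave an r of 0.77 to 0.96 and a rho of 0.66 to 0.96. The r of deviations from the group means was 0.74 to 0.96 for these pairs, so the likeness was present within groups. Without the second array of Sp. LK and the third of C. NK, chosen after the values were seen, r was 0.34 to 0.91 over 10 arrays.

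The H2A-9 and H2B-6 signals were also compared by the SD of their log2 difference. The mean of the H2A-9 probe sets had an SD of 0.26 over the 12 arrays on the log2 scale and H2B-6 Ta.27708.1.S1_x_at one of 0.21, but their difference had an SD of 0.09. The other H2B-6 probe set, Ta.27708.1.S1_at, had an SD of 0.18 and its difference from H2A-9 one of 0.24, so it did not follow H2A-9 in this way. For H2A-9 and H2A-3 Ta.27192.1.S1_at the SD of the difference was 0.10.

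The remaining 3 probe sets stood apart. H2A-3 Ta.27192.1.S1_s_at correlated with H2A-3 Ta.27192.1.S1_at at an r of -0.89 (rho -0.85) and had an r of -0.91 to -0.39 with the other 10. H2B-6 Ta.27708.1.S1_at correlated with H2B-6 Ta.27708.1.S1_x_at at 0.64 (rho 0.72), but with the mean of the 9 probe sets of the H2A genes at 0.33. H2A-2 correlated with the mean of the 10 probe sets of the other genes at 0.62 (rho 0.64). The pair of probe sets of H2A-3 thus ran against each other and that of H2B-6 ran together in part, unlike the 6 of H2A-9. For H2A-3 the direction of each difference between split and uniform supply depended on the probe set.

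H2B-8, another H2B gene, had 7 probe sets and was not among the genes above. Its probe set Ta.7378.1.S1_at read 4488, 3076 and 5033 in Sp. LK, 5139.8, 5935 and 5317 in C. LK, 3956, 4106 and 5171 in Sp. NK, and 4269.9, 4891 and 6912 in C. NK. The extreme arrays were those of H2A-9, the second of Sp. LK at the bottom and the third of C. NK at the top. Over its 6 brighter probe sets, r with the mean of the 11 H2A and H2B probe sets was 0.92 to 0.97, whereas the dim Ta.7378.17.S1_x_at, at signals of 4.6 to 297, had 0.11. The SD of the difference between the H2A-9 and H2B-8 means was 0.09 on the log2 scale. With Sp. LK over C. LK, the median log2 fold change of the 7 was -0.43 and 0 of 7 were called at the study's thresholds, beside 4.78% of all. In the other 3 comparisons of the study it was also 0 of 7. All probe sets had 3.65% in C. LK vs. C. NK, 3.38% in Sp. NK vs. C. NK and 2.75% in Sp. LK vs. Sp. NK. In Sp. LK vs. C. LK, Ta.7378.18.S1_at, Ta.7378.18.S1_x_at and Ta.7378.21.S1_at had an unadjusted p under 0.05 in limma (0.0435, 0.0331 and 0.0497). Their adjusted p-values were 0.657, 0.633 and 0.667. The other H2B-8 probe sets did not reach this, and 7.49% of all probe sets did.

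Probe sets that carry the cluster number of a histone gene but no gene in the annotation were also compared. Of the 8 such probe sets of cluster Ta.27657, that of H2A-9, 4 had an r above 0.9 with the mean of the H2A and H2B probe sets. Of the 31 of cluster Ta.7378, that of H2B-8, 20 did.

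Among the 30579 brighter probe sets outside the 11, 117 (0.383%) had an r above 0.9 and 105 (0.343%) an r below -0.9. At 0.5 the shares were 14.7% and 22.6%. The 5 with the highest r were sought among 847 brighter probe sets with a gene symbol, outside the 11 and H2B-8. They were LOC606330 at 0.90, LOC542857 at 0.89, LOC542916 at 0.89, LOC543471 at 0.88 and LOC542858 at 0.88. None had a synonym, so whether any of them is a histone gene is not known here. LOC542857 (Ta.74.1.S1_at) read 6529.6, 3831 and 6198 in Sp. LK, 7620.2, 8107 and 6401 in C. LK, 5982, 5853 and 7292 in Sp. NK, and 5544, 5374 and 8002 in C. NK, with its lowest signal on the second Sp. LK array too. Ranked by r among all brighter probe sets, these 5 stood between 107 and 192, behind many probe sets without a gene symbol.

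**Figure D4:**
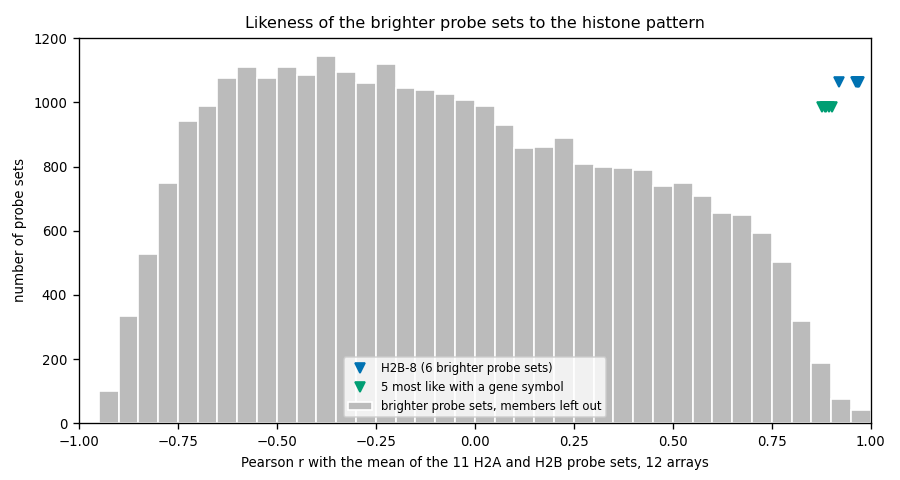
Number of brighter probe sets (vertical axis, 30579 outside the 11) by Pearson r over 12 arrays with the mean of the H2A and H2B probe sets (horizontal axis, bins of 0.05). Triangles mark the 6 brighter H2B-8 probe sets, at 0.92 to 0.97, and the 5 named probe sets most like it.

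The histone pattern ran with measures of the whole array. The first principal component of the brighter probe sets, which held 27.5% of their variance, correlated with the mean of the H2A and H2B probe sets at an r of 0.86 (rho 0.79) over 12 arrays and at 0.82 within groups. The 12 probe sets for the poly-A control transcripts, added to the RNA before labelling, ran the other way at an r of -0.74 (rho -0.55), and at -0.86 within groups. On the second Sp. LK array, the lowest for the histones, the poly-A controls lay 0.36 above their mean on the log2 scale. Controls added at hybridization had an r of -0.32 (rho -0.31), and the median log2 signal of an array one of -0.66 (rho -0.38). The first component was -0.49 to 0.03 on the Sp. LK arrays and 0.09 to 0.57 on the C. LK arrays, without overlap, in the comparison with the lowest histone median. In the other 3 comparisons of the study it overlapped, while the hybridization controls lay higher in Sp. LK (0.02 to 0.06) than in Sp. NK (-0.11 to -0.04). The part of these measures in the histone values was not tested.

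**Figure D5:**
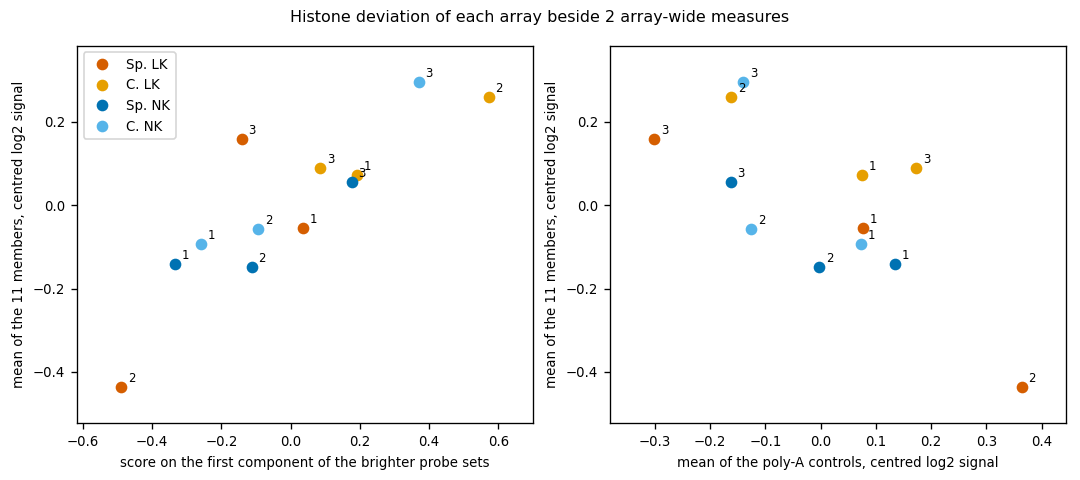
Mean deviation of the 11 H2A and H2B probe sets on each array (vertical axes, log2 signal) against the array's score on the first principal component of the brighter probe sets (left) and the mean deviation of the poly-A controls (right). Each point is an array, coloured by group and numbered by replicate. The second Sp. LK array is lowest for the histones and the first component and highest for the poly-A controls.

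Other genes that dividing or growing cells use were set beside the histones. Tubulins, the subunits of microtubules, had 10 probe sets of 6 genes. Of these, 1 of 10 fell in Sp. LK vs. C. LK at the study's thresholds and 0 rose, beside 4.78% of all probe sets called, and 0 of 10 were called in each of the other 3 comparisons of the study. The one called was Ta.723.1.S1_at of TUBA, an alpha-tubulin gene, which read 455, 92.7 and 740.5 in Sp. LK, 2159, 3265 and 2501 in C. LK, 135, 239 and 1999 in Sp. NK, and 258, 556 and 1982 in C. NK. All 3 Sp. LK arrays were below all 3 C. LK arrays, with a log2 fold change of -3.05 (unadjusted p = 0.00625, adjusted p = 0.528 in limma), and r with the histone mean was 0.87. The other TUBA probe set, Ta.812.1.S1_x_at, had an r of 0.14.

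The median log2 fold change of the 10 tubulin probe sets for Sp. LK over C. LK was -0.08, beside -0.31 for the histones and 0.04 over all probe sets. With Sp. NK over C. NK it was -0.13, beside -0.17 for the histones, with all 10 values between -0.71 and -0.03. The summed tubulin signal was 112905 to 117998 in Sp. NK and 123657 to 131456 in C. NK, without overlap, and its part in the histone values was not tested. The 8 translation probe sets were of ribosomal proteins and initiation and elongation factors. For Sp. LK over C. LK their median was -0.06 and 0 of 8 were called, beside 4.78% of all. In Sp. NK vs. C. NK 1 of 8 fell, beside 3.38% of all called, Ta.30687.2.S1_x_at of the ribosomal protein gene RPS29, at -1.43 (unadjusted p = 0.0348, adjusted p = 0.999 in limma), with overlapping groups. The second RPS29 probe set was not called.

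Hmgb3, a high mobility group protein that binds DNA in chromatin, had 2 probe sets with log2 fold changes of 0.05 and 0.09 for Sp. LK over C. LK, neither called. XTH, a xyloglucan-modifying enzyme of the growing cell wall, had 1 probe set, at -0.45 and not called. Genes of DNA replication and the cell cycle, other histones by title and actins were not analysed here. By symbol or synonym, 0 of the 771 genes matched those lists. Only 199 of the 1273 annotated probe sets had a synonym, so this does not show that such genes were absent from the array.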

How the data were processed

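Root RNA of 12 samples was measured on the Affymetrix Wheat Genome Array. The authors normalized the scans with the MAS5 algorithm in GeneSpring and deposited log2 signals, 1 value per probe set and array, which were used as deposited. Labelled cRNA was made with a 3′ IVT kit and scanned at default settings, per the methods. The 111 array controls were left out, and 61179 probe sets were fitted with limma 3.58.1 in R 4.3.3 (4 group means, eBayes with a variance trend), with Benjamini-Hochberg adjustment over all of them. The fit was checked on simulated data with independent noise for each probe set and array. Shifts shared by a whole array were not simulated. A set of 30590 probe sets averaged no less than the median log2 signal of 6.35 and are called brighter. Correlations are descriptions and have no p-value.

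The members and lists were chosen with earlier results of these data known. All member probe sets were named, as were members of the tubulin, translation, chromatin and cell wall lists called at the study's thresholds and the 5 brighter probe sets with a gene symbol most like the members' mean. The leaf and shoot, grain and root-expressed lists are given by their sums. Gene titles were not analysed here, so lists were matched by symbols and synonyms, and the symbol forms of H2B-8, the tubulins and the other lists were added after the annotation had been seen. The Entrez IDs of 1272 probe sets were found among the RefSeq genes of the Chinese Spring assembly (IWGSC CS RefSeq v2.1), which served for names and neighbours.

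The titles give replicate numbers. Deviations of same-numbered arrays from their group means had an r above 0.1 for 9 of 18 array pairs. Only Sp. NK vs. C. NK had this for each of its pairs (0.27, 0.16 and 0.28), and it was therefore also fitted with the pairs. No source ties the numbers to a batch, and the p-values measure the spread between these arrays.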

Additional observations from a re-analysis of the deposited data

How the results depend on the processing

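Under quantile normalization, centring on the brighter probe sets, the brighter probe sets only, no variance trend, the 6 arrays of a pair only, the methods' t-test and the replicate block, 0 of 11 members were called at the study's thresholds in every comparison where they were run, including the block over the 6 arrays of Sp. NK vs. C. NK, an alternative chosen after seeing the data. The replicate block changed no call at these thresholds. Leaving out each array in turn gave 0 to 1 of 11 called in Sp. LK vs. C. LK, and the 1 was H2A-9 Ta.27657.12.S1_at. It was called without the third C. LK array and without the third Sp. LK array. In these fits 9.55% and 7.61% of all probe sets had an unadjusted p under 0.05. The F test over the 4 groups was counted by an unadjusted p under 0.05 alone, with no fold threshold, and gave 0 to 1 of 11. The 1 arose without the third Sp. LK array, beside 5.18% of all. The median log2 fold change over the 11 kept its sign under all alternatives in Sp. LK vs. C. LK (-0.42 to -0.08), in Sp. NK vs. C. NK (-0.27 to -0.02) and in the average of both sides (-0.33 to -0.15), but not in Sp. LK vs. Sp. NK (-0.19 to 0.14) or in the low-K response in split minus uniform supply (-0.25 to 0.01). The number with an unadjusted p under 0.05 ran from 0 to 7 of 11 between Sp. LK and C. LK and in the average of both sides (0 in both without the variance trend), from 0 to 3 in C. LK vs. Sp. NK and in Sp. LK vs. C. NK, and from 0 to 2 in Sp. NK vs. C. NK, and was 0 in every alternative of the low-K response, of Sp. LK vs. Sp. NK and of C. LK vs. C. NK. Over all probe sets, the shares ran from 4.73% to 9.55% in Sp. LK vs. C. LK and from 5.5% to 9.35% in the average of both sides. They ran from 4.77% to 7.35% in C. LK vs. Sp. NK, from 3.96% to 6.36% in Sp. LK vs. C. NK and from 3.63% to 5.68% in Sp. NK vs. C. NK.

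Single members changed sign as follows, none of them called, and the cause was not tested. In C. LK vs. C. NK, the log2 fold change when arrays were left out in turn ran from -0.155 to 0.0802 for Ta.27192.1.S1_s_at, from -0.11 to 0.12 for Ta.27657.1.S1_at, from -0.10 to 0.27 for Ta.27657.14.S1_s_at, from -0.0306 to 0.157 for Ta.27657.6.S1_x_at, from -0.14 to 0.10 for Ta.27708.1.S1_at and from -0.0278 to 0.159 for Ta.27708.1.S1_x_at. In the same comparison Ta.27192.1.S1_s_at was at 0.0032 under quantile normalization and at 0.0067 under centring, and Ta.27708.1.S1_at at 0.0060 under quantile normalization. In Sp. NK vs. C. NK it ran from -0.265 to 0.0767 for Ta.27192.1.S1_at, from -0.0129 to 0.222 for Ta.27192.1.S1_s_at, from -0.293 to 0.0255 for Ta.27657.14.S1_x_at and from -0.22 to 0.0053 for Ta.27657.7.S1_x_at. For H2A-2 it ran from -0.40 to 0.14 in Sp. LK vs. C. LK and from -0.0686 to 0.203 in the average of both sides. The number of arrays limits the precision.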
